A study of Mus musculus with 9 samples.

Results

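Genes of pyroptosis and the inflammasome were examined in 9 whole tumors of the pancreas from the KPC mouse model. The 10 genes were the gasdermins Gsdmd, Gsdma and Gsdmc, the sensor Nlrp3, the adaptor Pycard, the caspases Casp1 and Casp4, and the cytokines Il1b, Il1a and Il18, out of 54453 in the deposited table. They were chosen by name from the pathway, with the log2 fold changes between the groups below in view, among which Gsdmd had the 68th smallest p of 16169 genes tested. Their differences between those groups are therefore given as a description with no p-value, and the counts of members past a threshold, printed beside the share of all genes, support nothing. One group was 4 tumors labelled Scrib WT, genotype KPF/+C (WT 2, 3, 6 and 9), and the other was 5 tumors labelled Scrib null, genotype KPF/+CSF/F (null 7, 14, 15, 18 and 23). All carry the strain name KPC, and the genotypes as written differ by SF/F. Scrib encodes a scaffold of apical-basal polarity. The labels do not spell out the single alleles, the promoter that drives Cre or the age of the mice, and they give no treatment. Whether any tumors shared a mouse is not given, and the p-values then cover the spread between tumors only.

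Pyroptosis is a lytic form of cell death with inflammation. A sensor such as NLRP3 assembles with the adaptor ASC, the product of Pycard, and recruits caspase-1, while caspase-11, the product of mouse Casp4, is activated by bacterial lipopolysaccharide inside the cell. These caspases cut gasdermin D, whose freed amino-terminal part forms pores in the plasma membrane, and caspase-1 also matures the precursors of IL-1β and IL-18. Most of these steps act on proteins, and the mRNA measured here does not report cleavage. Macrophages and neutrophils are known for expressing many of these genes, gasdermin D and IL-18 are also made by epithelia, and gasdermins A and C are known from skin and gut epithelium.

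The promoters of 3 members are printed because they hold a match to a motif of a factor known for regulating inflammatory or myeloid genes. RefSeq windows on GRCm38.p6, the 250 bases before each RefSeq start, matched 7 of the 10 members (Casp1, Casp4, Nlrp3, Pycard, Il1b, Il1a and Il18). Capitals mark the matches, and each sequence runs 5′ to 3′ on the strand of its gene.
Casp4, chr9:5308599-5308848, plus strand: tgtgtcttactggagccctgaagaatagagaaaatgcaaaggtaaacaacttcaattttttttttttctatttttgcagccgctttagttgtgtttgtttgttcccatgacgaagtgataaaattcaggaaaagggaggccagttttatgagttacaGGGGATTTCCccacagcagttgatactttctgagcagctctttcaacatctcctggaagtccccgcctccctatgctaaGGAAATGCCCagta
Pycard, chr7:127993868-127994117, minus strand: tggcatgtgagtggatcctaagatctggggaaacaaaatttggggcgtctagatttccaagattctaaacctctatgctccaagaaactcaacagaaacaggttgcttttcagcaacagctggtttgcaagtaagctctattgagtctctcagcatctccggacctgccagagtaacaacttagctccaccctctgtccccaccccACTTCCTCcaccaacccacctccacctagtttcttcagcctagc
Il1a, chr2:129309973-129310222, minus strand: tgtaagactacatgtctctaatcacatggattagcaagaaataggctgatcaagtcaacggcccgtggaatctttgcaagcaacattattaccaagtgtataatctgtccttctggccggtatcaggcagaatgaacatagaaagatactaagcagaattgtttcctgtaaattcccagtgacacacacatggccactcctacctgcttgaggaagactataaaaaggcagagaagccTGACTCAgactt

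In 32851 windows, 4 motifs were searched on both strands. Casp4 held 2 matches to an NF-kB motif (GGG and TTTCC with any 2 bases between), starting 93 and 14 bases before the RefSeq start that ends the printed window. The nearer one, printed as GGAAATGCCC, matches on the opposite strand. A second RefSeq start of Casp4 (window 5308610 to 5308859) puts the same matches 104 and 25 bases before it, whereas the gene in GENCODE starts at 5308828, so the nearer match lies inside the gene as drawn there. At least 1 match to this motif was in 1.41% of all windows. Pycard held 1 match to GAGGAAGT, a motif of the myeloid factor PU.1, on the opposite strand 44 bases before its start (2.44% of windows). Il1a held 1 match to TGANTCA, the AP-1 motif, 12 bases before its start (6.75% of windows). No match overlapped another. The interferon response motif (GAAA and GAAA with any 2 bases between), found in 2.98% of windows, was in none of the 7, and Casp1, Nlrp3, Il1b and Il18 had no match to any of the 4. A match is only a description of these letters.

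Estimated counts totalled 10145830 to 27596832 per tumor, and levels are given as CPM, the counts divided by the scaled library size and set to a common total. The top 100 genes held 32.5% of the counts of WT 3 and between 18.8% and 25.8% elsewhere. The mean level of 8 fibroblast markers was 3.52 log2 CPM in null 7 and 6.32 to 8.10 in the remaining 8 tumors, so values are also given without these 2 tumors. Scrib itself (chromosome 15, 76047158 to 76069784, GRCm38) ranged over 44.1 to 88.5 CPM among WT and over 36.9 to 102 CPM among null tumors. The log2 fold change of Scrib (here and below null over WT) came to -0.23 (SE 0.31, edgeR adjusted p = 0.712). Scrib counts summed over the gene thus did not separate the labels. Which exons were removed, and how much Scrib RNA came from cells without Cre, was not tested, and WT and null stand throughout for tumors so labelled. All 10 epithelial markers were detected in every tumor, with 7160 to 13500 CPM in sum, while 7 markers of the acinar cells of normal pancreas summed to 0.812 to 204 CPM.

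Gsdmd, the executioner of pyroptosis, was the most strongly expressed gasdermin. The gene (ENSMUSG00000022575, chromosome 15, 75862327 to 75867408, plus strand, GRCm38) had 67.0, 134, 111 and 104 CPM in tumors WT 2, 3, 6 and 9, and 26.8, 36.9, 52.0, 31.4 and 61.8 CPM in tumors null 7, 14, 15, 18 and 23. Every tumor labelled null lay below every tumor labelled WT, although WT 2 and null 23 were close. The means were 104 ± 27.7 CPM (SD, n = 4) and 41.8 ± 14.7 CPM (SD, n = 5), and the log2 fold change was -1.31 (SE 0.29), a level 2.49-fold lower in the null group. Without WT 3 and null 7 it was -1.01. In whole tumors, fewer cells of a type and less RNA per cell cannot be told apart. Of 31-base stretches of Gsdmd transcripts 0% occurred in another gene, so no look-alike shared its reads at that length.

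Apart from Gsdme, the other gasdermins were near or at the limit of detection. Gsdma had estimated counts of 2, 4, 0 and 0 in WT and 0, 1, 6, 1 and 0 in the null tumors, and Gsdmc had 0 in all 9. A count of 0 allows up to 3 counts, which is 0.103 to 0.287 CPM depending on the tumor, a limit that covers counting error only. Both failed the filter on low counts, so 8 of the 10 members entered the fit. Gsdma lies on chromosome 11 (98664351 to 98677708) and Gsdmc on chromosome 15 (63775968 to 63808759), 12.27 Mb from Scrib. Gsdmc shares 23.9% of its 31-base stretches with other genes, most with Gsdmc2, and Gsdma shares 16.8%, so their few reads could have been split among copies. Among the further gasdermins Gsdme, another pore-forming gasdermin, had 4.16 ± 1.88 CPM (SD, n = 4) in WT and 3.45 ± 2.73 CPM (SD, n = 5) in the null group (log2 fold change -0.27, SE 0.62, edgeR adjusted p = 0.831). Gsdmc4 had 36.6 estimated counts over all 9 tumors, Pjvk 17, Gsdmc2 2.38, Gsdmc3 2 and Gsdma2 1, and Gsdma3 had 0.

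The adaptor Pycard showed the lowest log2 fold change of the members. Pycard (chromosome 7, 127989708 to 127993867, minus strand) had 48.1, 73.3, 16.3 and 29.8 CPM in tumors WT 2, 3, 6 and 9, and 3.94, 9.47, 13.8, 8.23 and 12.8 CPM in tumors null 7, 14, 15, 18 and 23. The groups did not overlap, with WT 6 only just above null 15. Its log2 fold change was -2.11 (SE 0.46), or -1.46 without WT 3 and null 7. Of its 31-base stretches 12.7% occurred in other genes, mostly in Gm45205 on the other strand, which had at most 5 estimated counts in any tumor. The sensor Nlrp3 (chromosome 11, 59541568 to 59566956) behaved otherwise, with 14.2, 9.28, 3.16 and 9.85 CPM in WT and 3.18, 8.68, 4.35, 4.77 and 9.57 CPM in the null tumors. Its groups overlapped over most of their range, because WT 6 was as low as null 7. For Nlrp3 the log2 fold change was -0.58 (SE 0.47), or -0.36 without WT 3 and null 7.

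Both inflammatory caspases had a lower mean in the null group. Casp1, which cuts gasdermin D, pro-IL-1β and pro-IL-18, had 9.07, 10.8, 7.85 and 9.94 CPM in WT and 0.959, 3.16, 4.96, 2.83 and 4.17 CPM in the null tumors. The gene lies at 5298517 to 5307265 on chromosome 9. The WT tumors lay close together and above all null tumors, of which null 7 was lowest, with 19 estimated counts. Casp1 had a log2 fold change of -1.55 (SE 0.43), or -1.21 without WT 3 and null 7. Casp4, the lipopolysaccharide-responsive caspase, lies next to Casp1 (chromosome 9, 5308828 to 5336783) and had 10.1, 12.3, 5.08 and 6.81 CPM in WT and 1.31, 2.16, 6.02, 1.45 and 1.24 CPM in the null tumors. Here null 15 reached into the WT range, above WT 6, while the other 4 null tumors lay below it. Casp4 had a log2 fold change of -1.81 (SE 0.54), or -1.38 without WT 3 and null 7 and -2.48 without null 15.

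The cytokine genes did not share one pattern. Il18 (chromosome 9, 50554827 to 50581840) had 30.4, 25.9, 16.5 and 10.3 CPM in WT and 8.58, 5.31, 6.85, 2.46 and 8.37 CPM in the null tumors, with no overlap. Its log2 fold change of -1.72 (SE 0.42) was -1.69 without WT 3 and null 7. Il1b (chromosome 2, 129364570 to 129371139, minus strand) had 29.4, 234, 29.1 and 30.8 CPM in WT and 14.4, 86.3, 37.3, 21.7 and 59.4 CPM in the null tumors. Tumor WT 3 stood far above the other 3 tumors labelled WT, which were close to one another and lay inside the null range. The log2 fold change of Il1b was -0.88 (SE 0.73) with all tumors and 0.60 (SE 0.51) without WT 3 (0.82 without null 7 as well), so its sign rested on that tumor. Il1a, which encodes a cytokine active without caspase-1 (chromosome 2, 129299610 to 129309972, minus strand), had 32.7, 73.9, 35.7 and 12.4 CPM in WT and 40.4, 145, 20.8, 23.9 and 19.9 CPM in the null tumors. Its groups overlapped almost fully, and null 14 was highest. Il1a had a log2 fold change of 0.37 (SE 0.67), which was -0.56 (SE 0.48) without null 14 and 1.002 without WT 3 and null 7. The spans of the cytokine genes overlap genes on the other strand, Il18 with Bco2 (at most 172.3 estimated counts in a tumor), Il1b with Il1bos (60) and Il1a with Gm14023 (21). Of the 31-base stretches of Il18 and Il1b transcripts 0% occurred in another gene on either strand. Il1a shared 10% of its stretches with Gm14023, and reads there may be mixed.

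**Figure D1:**
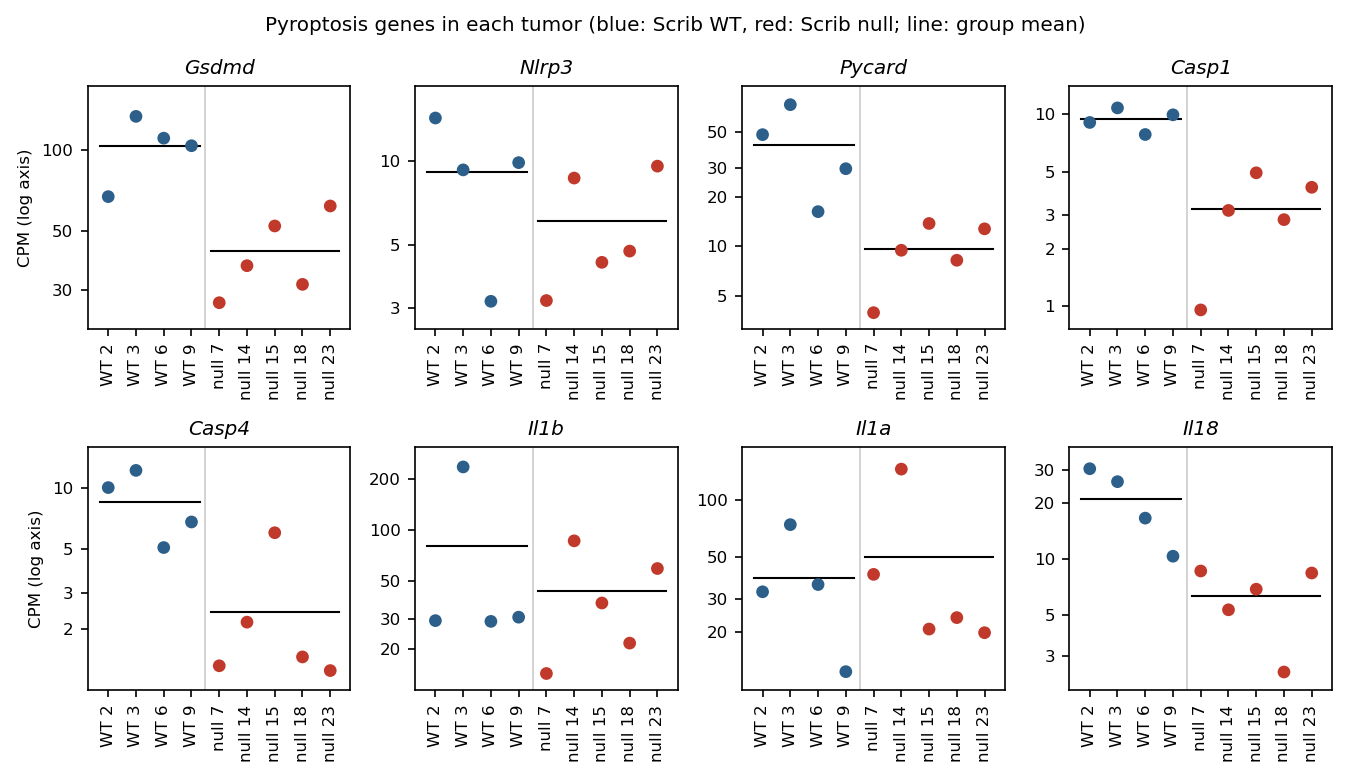
CPM of the 8 members that passed the filter (y axis, logarithmic, its range set per panel) in each of 9 tumors (x axis; blue points Scrib WT, red points Scrib null, lines the group means). The groups do not overlap for Gsdmd, Pycard, Casp1 and Il18, and WT 3 at 234 CPM carries the WT mean of Il1b.

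Of the 8 members tested, 7 had a negative and 1 a positive log2 fold change, where 52.2% of all 16169 genes were below 0, and their median was -1.43 beside -0.04 over all genes. The null group lay wholly below the WT group for 4 members (3.49% of all genes) and wholly above it for 0 (3.42%). Nothing is read from these or the next shares, since the members were chosen with this contrast known. In edgeR's quasi-likelihood test 0 of the 8 passed at an adjusted p under 0.05, where 0.0124% of genes passed as lower and 0% as higher, and 5 were lower at an unadjusted p under 0.05 (10.0% of genes). DESeq2 called 5 members as lower (Gsdmd, Pycard, Casp1, Casp4 and Il18; 2.34% of genes, with 1.24% called higher) and limma-voom called 0 (0.00618% of genes in each direction). As a description, the log2 fold change ranged over the 18 alternatives between -1.50 and -1.01 for Gsdmd, between -2.38 and -1.46 for Pycard and between -1.94 and -1.47 for Il18. For Casp1 the range was -1.92 to -1.15, for Casp4 it was -2.48 to -1.32, and for Nlrp3, Il1b and Il1a it spanned 0.

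**Figure D2:**
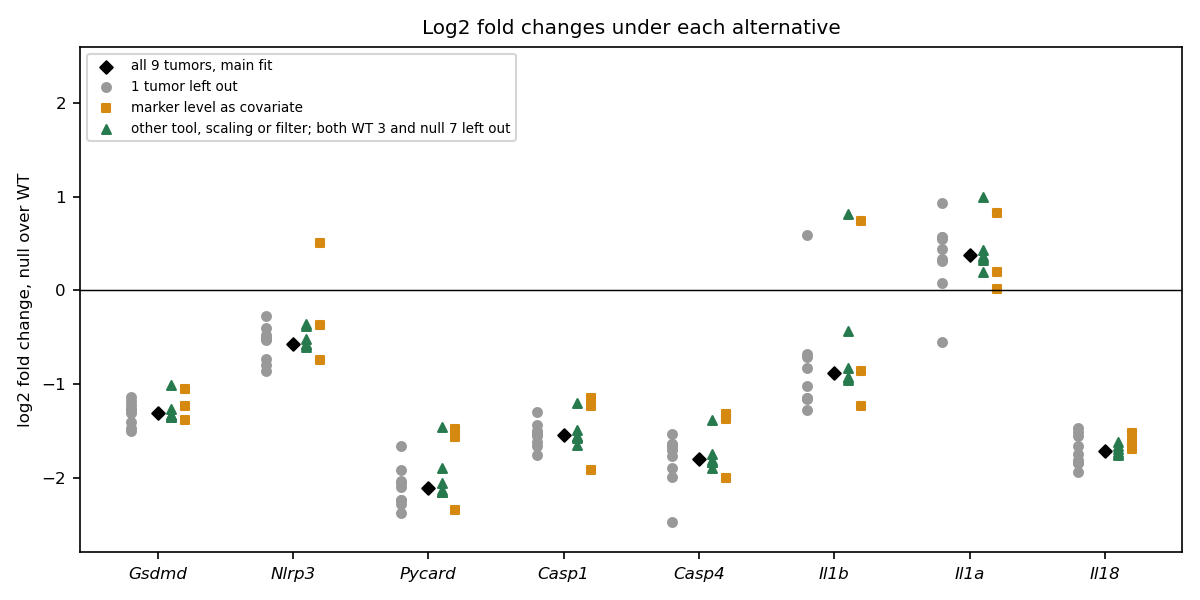
Log2 fold change, null over WT (y axis), of each tested member (x axis) with all tumors (black diamonds), with 1 tumor left out (grey circles), with a marker level as covariate (orange squares) and under the other alternatives (green triangles). Gsdmd, Pycard, Casp1, Casp4 and Il18 stay below 0 throughout, while Il1b runs from -1.28 to 0.82, Il1a lies on both sides of 0 and Nlrp3 runs from -0.86 to 0.50.

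Levels were compared between members per kb of annotated exon, a scale that understates genes with long rare isoforms. Il1b, at 31.6 ± 36.0 CPM per kb (SD, n = 9), and Gsdmd, at 29.2 ± 16.1, came first, and their order was not fixed, since Il1b was above Gsdmd in 3 of 9 tumors. Il1a followed at 22.8 ± 21.1 and lay below Gsdmd in 7 tumors. Il18 at 12.4 ± 9.31 was above Pycard at 6.31 ± 6.03 in all 9 tumors, and Pycard was above Casp1 at 3.99 ± 2.35 in 8. Nlrp3 at 1.84 ± 0.931 and Casp4 at 1.39 ± 1.09 CPM per kb did not differ beyond their spread, with Nlrp3 higher in 6 of 9. Gsdma, at 0.0338 CPM per kb, lay far below all of these.

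Genes of the pathway outside the 10 members were tested with all genes, from 7 lists of 69 genes, of which 57 passed the filter. These lists, like the members, were chosen with earlier results of these data known. Their counts, shares and p-values are therefore a description, and nothing is read from them. None passed edgeR's adjusted threshold in either direction (lowest adjusted p = 0.197). At an unadjusted p under 0.05, 15 were lower and 2 higher, against 10.0% and 7.64% of all genes. The median log2 fold change of the 57 was -0.47, and 46 were below 0, beside 52.2% of all genes. DESeq2, which called 2.34% of all genes lower and 1.24% higher, called 4, all lower and all sensors (Nlrc4, Naip5, Naip6 and Aim2), and limma-voom called 0.

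The list of sensors other than Nlrp3 had the lowest median of the 7 lists, with 12 of 14 tested below 0 and a median of -1.39. This list also holds Nek7, Dpp8 and Dpp9, which are not sensors. The 2 genes above 0 were Dpp8 (0.20) and Dpp9 (0.62). Nlrc4, which senses flagellin through the NAIP proteins, had 25.1 ± 12.1 CPM (SD, n = 4) in WT and 5.14 ± 4.18 CPM (SD, n = 5) in the null group, with null 23 at 11.9 CPM above WT 2 at 9.36 CPM (log2 fold change -2.28, SE 0.66, edgeR adjusted p = 0.208). Aim2, a sensor of cytosolic DNA, had 9.27 to 39.6 CPM in WT and 3.28 to 5.47 CPM in the null tumors, without overlap (log2 fold change -2.07, SE 0.45, edgeR adjusted p = 0.197). Naip5 and Naip6 also did not overlap, at 10.7 ± 2.95 against 3.20 ± 1.27 CPM and 8.67 ± 3.71 against 2.59 ± 1.16 CPM (edgeR adjusted p = 0.197 and 0.201). Dpp9 did not overlap in the other direction, with 27.7 to 64.3 CPM in WT and 65.8 to 76.3 CPM in the null tumors (edgeR adjusted p = 0.237). The list thus had 3 genes wholly lower and 1 wholly higher in null, where 3.49% and 3.42% of all genes were. Naip5 shares 53.1% and Naip6 35.0% of their 31-base stretches with other genes, so how reads were split between the copies is uncertain. Nek7, a kinase that NLRP3 needs, had 107 ± 22.3 and 105 ± 21.8 CPM (log2 fold change -0.02, SE 0.22, edgeR adjusted p = 0.962).

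The other caspases, most of them known from apoptosis, lay closer to 0, with 4 of 7 tested below 0 and a median of -0.16. Casp6 had 47.0 to 69.2 CPM in WT and 20.1 to 43.3 CPM in the null tumors (log2 fold change -0.66, edgeR adjusted p = 0.242). The log2 fold change was -0.31 for Casp8, the initiator of death receptor signals (edgeR adjusted p = 0.347), and 0.37 for Casp2 (0.372). Casp12, in the same cluster as Casp1 and Casp4, had 11.2 ± 6.57 and 4.64 ± 3.25 CPM, and its log2 fold change of -1.26 (SE 0.58) did not pass (edgeR adjusted p = 0.286).

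Among ligands and antagonists all 5 tested were below 0, and none had an unadjusted p under 0.05. Il33, an alarmin, had 85.4 ± 36.4 CPM in WT and 33.6 ± 22.8 CPM in the null group (edgeR adjusted p = 0.291). Il1rn, the secreted antagonist of the IL-1 receptor, had 174 ± 140 and 139 ± 71.1 CPM (0.773), Il18bp, the decoy for IL-18, 3.65 ± 0.403 and 2.42 ± 0.769 CPM (0.380), and Il36a 2.83 ± 3.87 and 1.45 ± 1.85 CPM (0.636). Of 9 genes of the receptor list, which holds the receptor adaptor Myd88, 7 were below 0, with a median of -0.66. The signalling receptor Il1r1 had 71.3 ± 19.2 and 41.2 ± 14.7 CPM (edgeR adjusted p = 0.233). The decoy receptor Il1r2 had 21.9 to 104 CPM in WT and 12.6 to 18.9 CPM in the null tumors (0.208), with WT 3 highest, and Il1rl2, the receptor for IL-36, 15.2 ± 10.3 and 5.29 ± 2.27 CPM (0.242). Sigirr, which restrains IL-1 receptor signals, went the other way, with 42.0 ± 12.3 and 67.7 ± 18.5 CPM (log2 fold change 0.69, SE 0.27, edgeR adjusted p = 0.245).

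Regulators of pyroptosis had a median log2 fold change of -0.47 over 17 tested genes. Panx1, a channel that releases ATP, had 19.4 to 27.8 CPM in WT and 8.22 to 16.6 CPM in the null tumors (edgeR adjusted p = 0.221), and P2rx7, the ATP receptor upstream of NLRP3, had 18.4 ± 9.89 and 8.54 ± 2.42 CPM (0.230). The log2 fold change was -1.42 for Serpinb1a, an inhibitor of neutrophil proteases (0.224), and -0.92 for Tlr2, a receptor of bacterial lipopeptides (0.259). Ninj1, which ruptures the membrane after gasdermin pores form, had 79.9 ± 27.4 and 70.5 ± 11.0 CPM (edgeR adjusted p = 0.697). Irf2, known as an activator of Gsdmd transcription, had 36.9 ± 13.8 and 50.8 ± 11.8 CPM (log2 fold change 0.46, SE 0.28, edgeR adjusted p = 0.395), with overlap of the groups. A part of Irf2 in the level of Gsdmd was not tested.

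**Figure D3:**
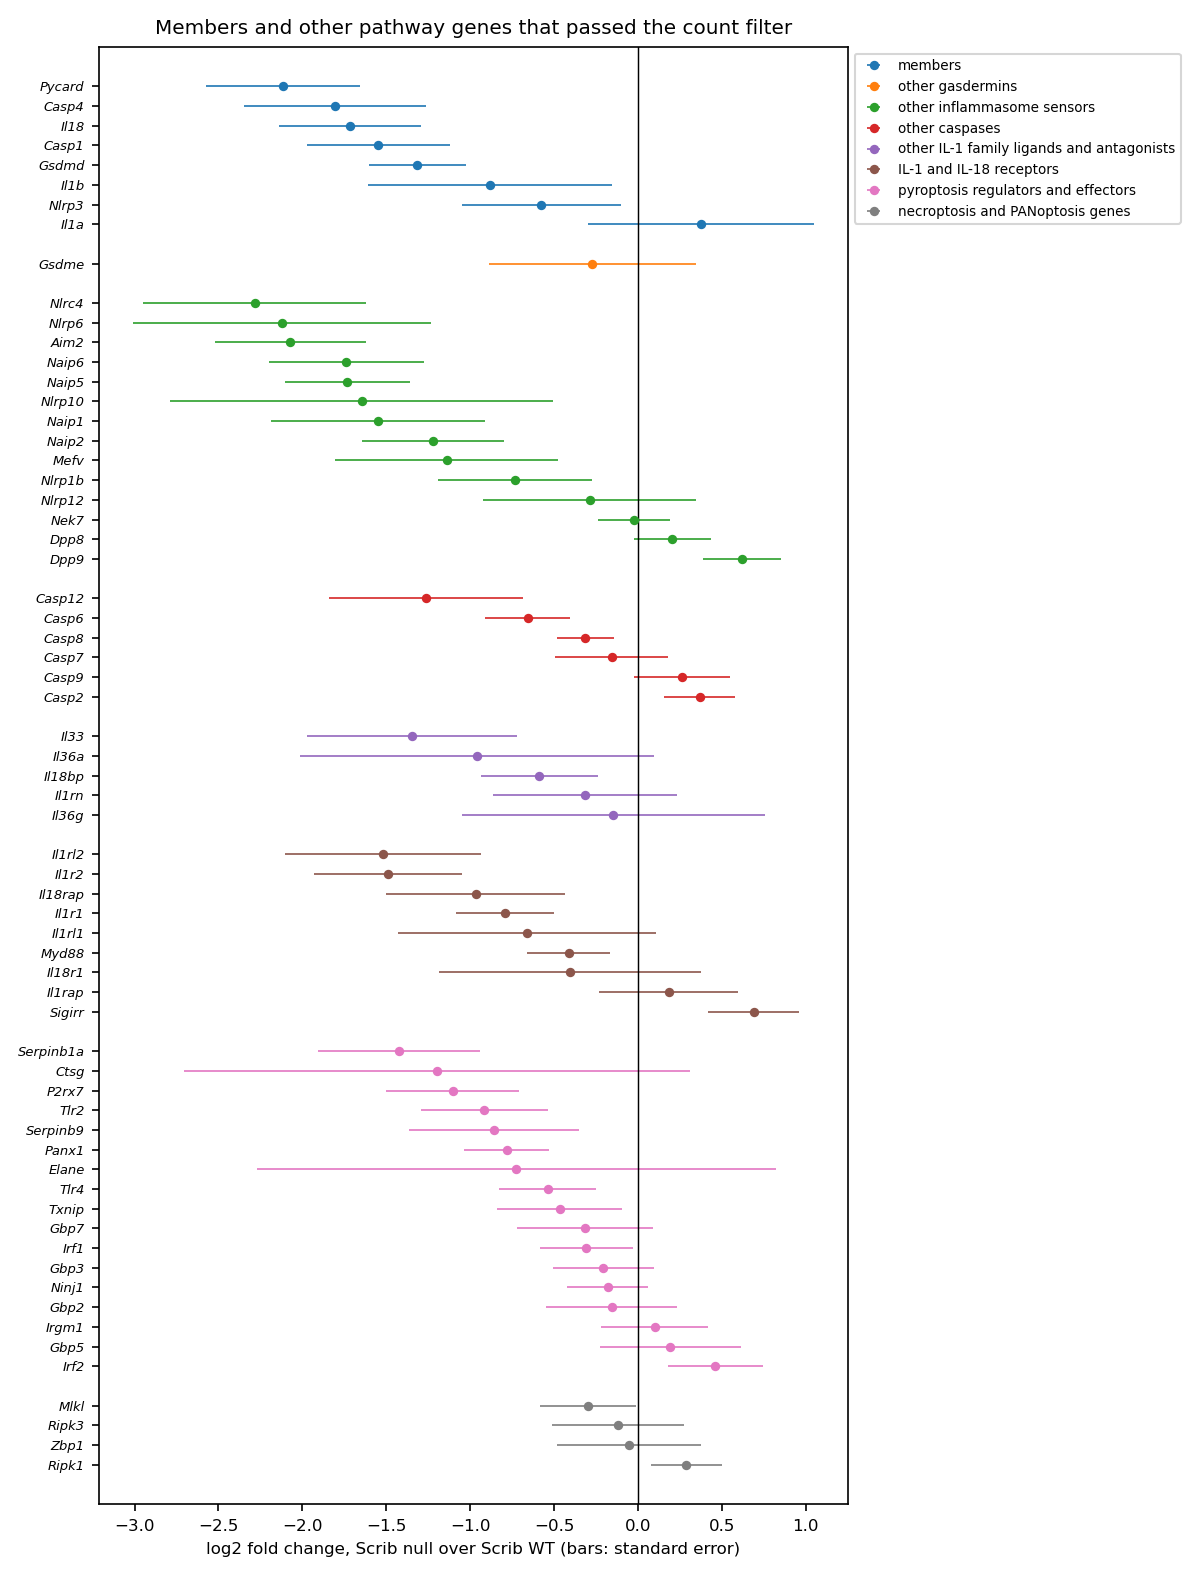
Log2 fold change, null over WT (x axis, bars the standard error), of the 8 members that entered the fit and of other pathway genes (y axis), coloured by list. Most points lie left of 0, down to -2.28 for Nlrc4, while Sigirr and Irf2 lie to the right.

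Gsdmd starts 184.8 kb from Scrib, the gene that the labels name, so the genes around it were described as well. Start here means the lower coordinate of a gene, which is the 3′ end of genes on the minus strand, such as Scrib and Zc3h3. Within 500 kb of its start the table held 60 other genes, of which 35, Scrib among them, passed the filter. Their median log2 fold change was 0.15, with 13 below and 22 above 0, and the groups overlapped for all 35. None passed in edgeR, with 1 lower and 2 higher at an unadjusted p under 0.05 (10.0% and 7.64% of all genes), and DESeq2 called 1, Gpihbp1. Of the 4 nearest tested genes on either side, Naprt alone was below 0 (-0.74, SE 0.45, edgeR adjusted p = 0.390). The others were Zc3h3 (0.47), Rhpn1 (1.15), Top1mt (0.37), 2810039B14Rik (0.65), Mroh6 (0.67), Eef1d (0.15) and Tigd5 (0.64), with edgeR adjusted p from 0.348 to 0.830. The smallest p values were those of Gpihbp1, a lipoprotein lipase carrier of capillary endothelium, at -2.03 (SE 0.63, edgeR adjusted p = 0.217), and Oplah, at 0.65 (0.266).

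**Figure D4:**
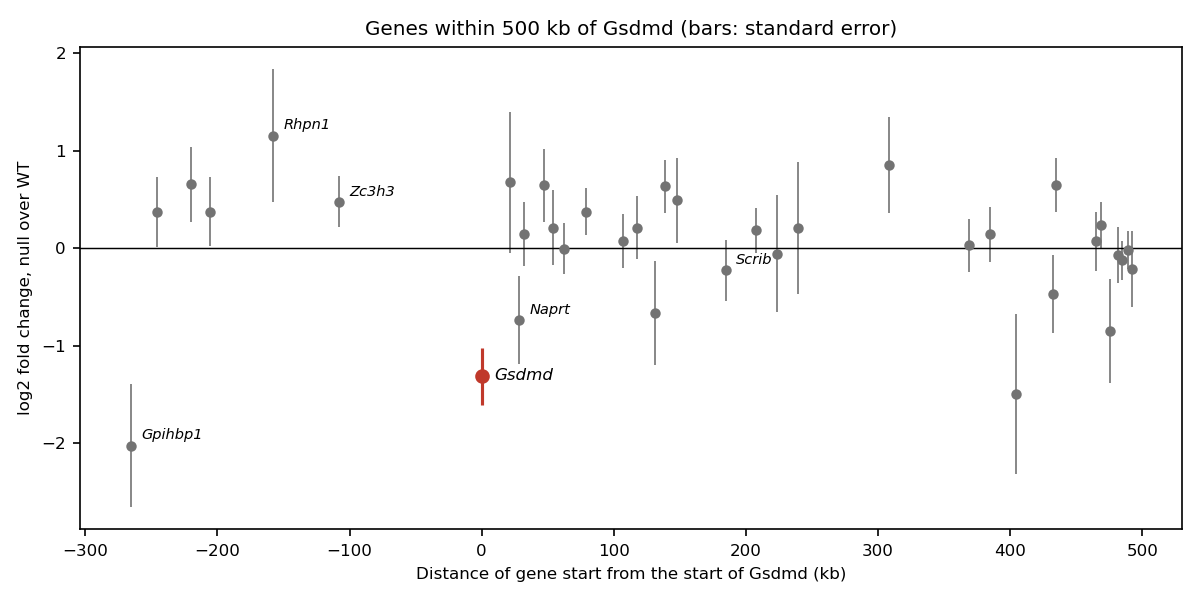
Log2 fold change, null over WT (y axis, bars the standard error), of the 35 tested genes within 500 kb of Gsdmd against the distance of their start from that of Gsdmd (x axis, kb). The start is the lower coordinate of a gene, whatever its strand. Gsdmd, in red at -1.31, is surrounded by points on either side of 0, with Scrib at -0.23.

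Because many members are expressed by myeloid cells, their levels were set beside myeloid markers. The marker lists were also chosen with earlier results of these data known, so their counts, shares and p-values are a description. All 14 macrophage and monocyte markers were detected in every tumor, and they summed to 1110 to 2280 CPM in WT and 779 to 1350 CPM in the null tumors. Averaged over the 14, the level was 5.92 ± 0.61 log2 CPM (SD, n = 4) in WT and 5.18 ± 0.36 (SD, n = 5) in null tumors, a difference of -0.74 (two-sided exact permutation p = 0.0794, or 0.262 adjusted over 11 marker lists). Of the 14, 13 had a log2 fold change below 0 (52.2% of all genes). At an unadjusted edgeR p under 0.05, 10 were lower (10.0% of all genes), and 0 passed after adjustment. DESeq2 called 3 lower (2.34% of all genes). Ly6c2 went the other way, at 2.02 (SE 1.18), with 38.2 CPM in null 7 and at most 6.37 CPM in any other tumor. The 9 neutrophil markers, all detected in every tumor, summed to 234 to 2880 CPM and 96.2 to 652 CPM, with WT 3 highest (difference of mean level -1.02, exact permutation p = 0.214, adjusted p = 0.337). The epithelial markers differed by 0.11 (exact permutation p = 0.532, adjusted p = 0.660).

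Other lists had lower means in the null group along with the members. The mean level differed by -1.53 for intestinal epithelium (exact permutation p = 0.151, adjusted p = 0.332), by -1.17 for fibroblasts (exact permutation p = 0.206, adjusted p = 0.337) and by -1.02 for endothelium (exact permutation p = 0.0635, adjusted p = 0.262), with null 7 the lowest tumor in all 3. Of the intestinal markers Lgals4, a galectin of gut epithelium, had 322 to 3220 CPM in WT and 18.1 to 239 CPM in null tumors, without overlap (log2 fold change -3.14, SE 0.77, edgeR adjusted p = 0.197, DESeq2 adjusted p = 0.00247), while Vil1, Cdx2 and Cdh17 lay between -0.29 and -0.09. The part of these cells in the members' differences was not tested. None of the 11 lists passed after adjustment. The smallest p this design allows is 0.00794.

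Relations between the 8 members and the macrophage, neutrophil and epithelial levels, 24 in all, were computed over the 9 tumors, which share library and depth between the measures. Except where r was centred, the permutations ignored the groups. Most members and both myeloid levels had lower means in the null group, so an r not centred also carries that difference, which was known when the members were chosen. After adjustment 0 passed, with 9 at an unadjusted p under 0.05. For Nlrp3 and the macrophage level Pearson's r was 0.80 (exact permutation p = 0.00882, adjusted p = 0.0665) and Spearman's rho 0.87 (exact permutation p = 0.00451, adjusted p = 0.0662). With each group centred on its mean r was 0.82 (exact permutation p = 0.0167, adjusted p = 0.106), and without WT 2 and WT 9, the tumors farthest from the median level, it was 0.71 (exact permutation p = 0.0948). For Gsdmd and the macrophage level r was 0.60 (exact permutation p = 0.0903, adjusted p = 0.197) and rho 0.65 (exact permutation p = 0.0666, adjusted p = 0.160). Centred on the group means the r of Gsdmd was 0.11 (exact permutation p = 0.791), and without WT 2 and WT 9 it was 0.71 (exact permutation p = 0.0810). The 5 null tumors had the same order for Gsdmd and for the macrophage level, from null 7 through 18, 14 and 15 to 23, whereas WT 2, with the highest level, had the least Gsdmd of the WT tumors.

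Pycard, Casp1 and Casp4 each had 2 of the 9 relations with an unadjusted p under 0.05. With the macrophage level the r of Pycard was 0.78 (exact permutation p = 0.0139, adjusted p = 0.0665) and its rho 0.83 (exact permutation p = 0.00827, adjusted p = 0.0662). Without WT 2 and WT 9 its r was 0.79 (exact permutation p = 0.0169). Centred on the group means this r was 0.57 (exact permutation p = 0.181, adjusted p = 0.362). Without WT 3 this r was 0.92, the 1 relation that passed with any tumor left out (exact permutation, adjusted p = 0.0375). With the neutrophil level r was 0.80 for Pycard (exact permutation p = 0.00908, adjusted p = 0.0665; rho 0.78, p = 0.0172) and 0.80 for Il1b (exact permutation p = 0.0120, adjusted p = 0.0665; rho 0.75, p = 0.0255). Centred on the group means these were 0.82 and 0.81 (exact permutation p = 0.0177 and 0.0253, adjusted p = 0.106 for both). Without WT 3 and null 7, the 2 tumors farthest from the median neutrophil level, the r not centred fell to 0.42 and 0.22 (exact permutation p = 0.346 and 0.632). Leaving out the ends of a level also narrows its range, so this fall alone does not show what the relations rested on. For Gsdmd with the neutrophil level r was 0.71 (exact permutation p = 0.027, adjusted p = 0.0811). Centred on the group means it was 0.67 (exact permutation p = 0.0691), and without WT 3 and null 7 it was 0.35 (exact permutation p = 0.444). With the macrophage and neutrophil levels r was 0.76 and 0.73 for Casp1, and 0.69 and 0.77 for Casp4. Centred on the group means r was 0.51 and 0.68 for Casp1 (exact permutation p = 0.0354 and 0.0122, adjusted p = 0.106 for both). For Casp4 the centred r was 0.35 and 0.76 (exact permutation p = 0.312 and 0.0156, adjusted p = 0.535 and 0.106). Not centred, the neutrophil values of Casp1 and Casp4 fell to 0.46 and 0.61 without WT 3 and null 7. With the epithelial level r was -0.08 for Gsdmd (exact permutation p = 0.849, adjusted p = 0.862; rho -0.33, p = 0.385), and without WT 6 and null 7 it was -0.90 (exact permutation p = 0.00774, not adjusted). Centred on the group means, with all tumors, it was 0.24 (exact permutation p = 0.652). The fall was not particular to Gsdmd. Without WT 6 and null 7 r was -0.86 for Casp1, -0.75 for Pycard, -0.66 for Il18, -0.57 for Casp4, -0.50 for Nlrp3, -0.11 for Il1b and 0.50 for Il1a.

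**Figure D5:**
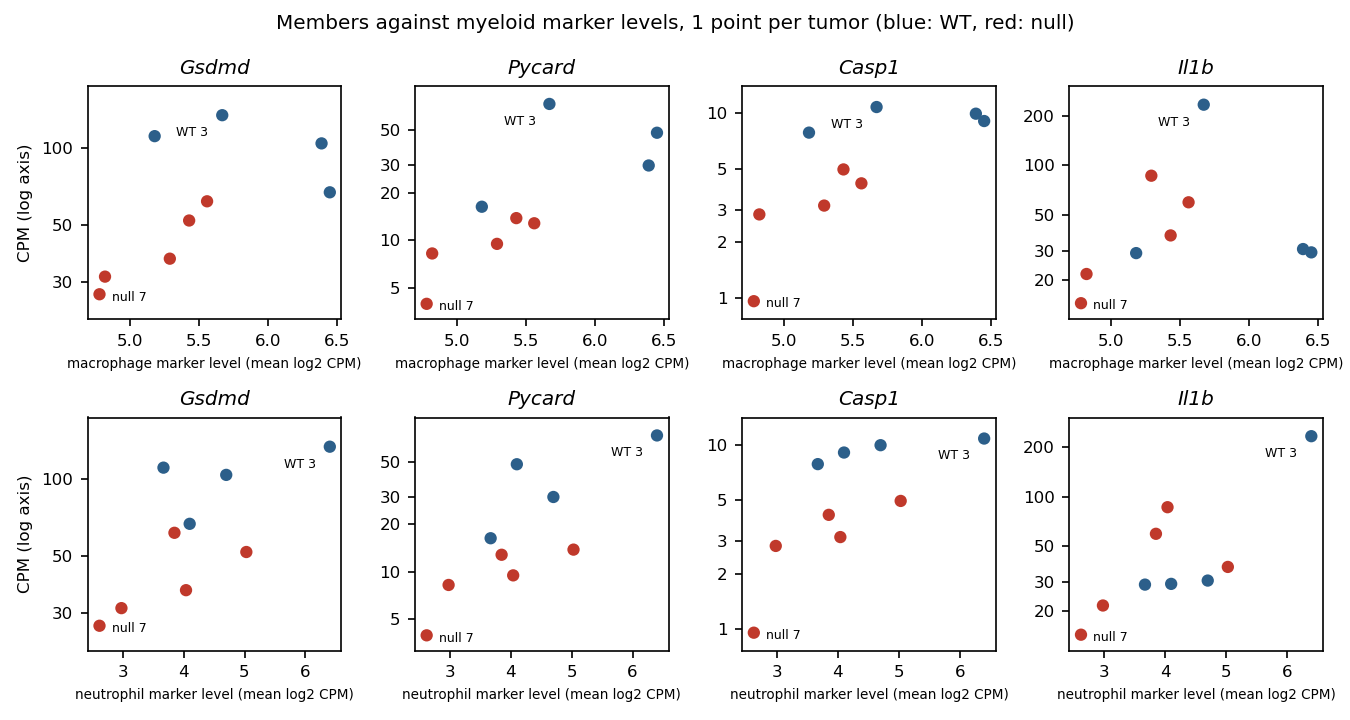
CPM of Gsdmd, Pycard, Casp1 and Il1b (y axis, logarithmic) against the mean log2 CPM of macrophage and monocyte markers (upper row) and of neutrophil markers (lower row), with 1 point per tumor (blue WT, red null). For Gsdmd, Pycard and Casp1 every WT tumor lies above every null tumor, and WT 3 sits at the far right of the neutrophil axis. The part of the marker levels in these differences was not tested.

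With the macrophage level as a covariate the log2 fold change of Gsdmd was -1.24 (SE 0.35), of Il18 -1.52 (SE 0.54), of Pycard -1.56 (SE 0.54), of Casp1 -1.15 (SE 0.48) and of Casp4 -1.32 (SE 0.65). That of Nlrp3 turned to 0.50 (SE 0.48). With the neutrophil level as covariate Gsdmd was at -1.05 (SE 0.27), Pycard at -1.48 (SE 0.37) and Il18 at -1.62 (SE 0.49), and Il1b turned to 0.74 (SE 0.51). Both levels had lower means in the null group (-0.74 and -1.02), so with 9 tumors these fits cannot separate marker level from label. The neutrophil level was highest in WT 3, at 6.40 log2 CPM, and without WT 3 alone Il1b was at 0.60. The part of myeloid cells in the members' differences was not tested.

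The genes whose pattern was most like that of Gsdmd over the 9 tumors, among 14077 tested genes left after those with only a Gm number, Rik clone name or identifier were set aside, were Idh1 (r 0.98), Hoxd3os1 (0.97), Phgr1 (0.97), Syt16 (0.96) and Sept1 (0.96). Idh1, the cytosolic isocitrate dehydrogenase, ranked the 9 tumors in the same order as Gsdmd did, with 7.39 to 7.97 log2 CPM in WT and 5.81 to 7.11 in the null tumors. Centred on the group means its r was 0.92, and that of the other 4 genes was 0.85 to 0.90. None of the 5 lies on chromosome 15. The genes most like Il1b were Rab44 (r 0.97), Trim30b (0.94), Hcar2 (0.93), Cass4 (0.93) and Akr1b8 (0.93), all with their highest level in WT 3. These genes were chosen as the highest of all correlations, so no p is given.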

How the data were processed

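RNA from 9 frozen tumors was sequenced as polyA mRNA, per the labels' protocols. The deposited table held estimated counts per Ensembl gene, 1 column per tumor, which differ in their totals and so were taken as not normalized. Salmon 1.4.0, DESeq 2 and the builds GRCm38 and mm10 are named, without roles, per the submitters' processing notes. The annotation release, any filter by the authors and whether libraries kept strand are not given in the sources used here. Reads of genes whose transcripts share sequence on opposite strands may therefore be mixed. Symbols and coordinates came from GENCODE M21 on GRCm38, with older IL-36 symbols matched through RefSeq synonyms. Of 54453 rows 54200 matched.

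Counts were rounded to whole numbers, filtered by filterByExpr at a count of 10 and a total of 15, scaled by TMM and tested by quasi-likelihood in edgeR 4.0.16 (R 4.3.3), adjusting p-values by Benjamini-Hochberg over 16169 genes, with a threshold of 0.05. CPM used the TMM-scaled library, and log2 CPM a prior count of 2. The SE is the log2 fold change divided by the square root of F. DESeq2 1.42.0 and limma-voom (limma 3.58.1) were alternatives, beside another scaling, 2 other filters, 3 covariates, each tumor left out and 2 tumors left out together. A marker level was the mean log2 CPM of the listed markers that passed the filter. Exact permutations ran over all 362880 orders of the tumors, over 2880 within groups, or over every split into 4 and 5. Tests were checked on simulated data. Shared sequence was counted as 31-base stretches of GENCODE transcripts found in another gene on either strand.

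The members, lists and motifs were chosen with earlier results of these data known. Other genes were named by rule: up to 4 with the smallest p per list, genes fixed by name, of which 1 is not reported here, any other gasdermin with a count, the 4 nearest neighbours on each side of Gsdmd and the 2 with the smallest p, and the 5 most alike. Gsdma3, Xcr1, Clec9a, Lgals4, Vil1, Cdx2, Cdh17, Myd88, Dpp8, Dpp9 and Ly6c2 were named after their values were seen. Totals were 10145830 to 27596832 per tumor, and the common biological coefficient of variation was 0.494.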

Additional observations from a re-analysis of the deposited data

Results flagged for a closer look

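Of 40 groups of values examined (8 members, Scrib and 11 marker levels, each in WT and the null tumors), 5 held a tumor whose gap to its nearest neighbour took up more of the range than Dixon's 95% limit allows. Chance flags about 1 in 20. For Il1b it was WT 3, at 7.87 log2 CPM, where the remaining WT tumors spanned 4.87 to 4.95. The dendritic cell marker level of WT 2 was 2.34 log2 CPM against 1.89 to 1.96. For 3 further lists it was null 7, the lowest of its group, with an epithelial level of 8.87 log2 CPM against 9.44 to 9.66, a fibroblast level of 3.52 against 6.53 to 7.20 and an endothelial level of 2.29 against 4.10 to 4.62. Null 7 was also the lowest of all 9 tumors for 4 of the 8 members tested.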

How the results depend on the processing

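No paired analysis was possible because the 2 groups share no tumor number. Genes called lower and higher, 2 and 0 with all tumors in edgeR, were 6 and 1 without a filter, 419 and 223 in DESeq2, 1 and 1 in limma-voom, and 6 and 1 with the epithelial covariate. With the macrophage or the neutrophil covariate, or without both WT 3 and null 7, 0 were lower, and with any 1 tumor left out 0 to 1 were. DESeq2 also called 4 other pathway genes, 1 neighbour of Gsdmd and 5 members, against 0 of each in edgeR, and the cause was not tested. Relations of members with marker levels that passed numbered 0 to 1 with 1 tumor left out, the 1 being that without WT 3. The log2 fold change of Nlrp3 reversed to 0.50 with the macrophage covariate. The range with 1 tumor left out was -1.28 to 0.60 for Il1b and -0.56 to 0.93 for Il1a. The value of Il1b reversed to 0.60 without WT 3, 0.74 with the neutrophil covariate and 0.82 without both tumors, and that of Il1a to -0.56 without null 14. The log2 fold changes of Gsdmd, Pycard, Casp1, Casp4 and Il18 kept their sign in all 18 alternatives. Depth limits Gsdma and Gsdmc, whose counts were at most 6 and 0.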

Other observations

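Genes of necroptosis, a lytic death that runs through other proteins than the gasdermins, lay close to 0, with a median log2 fold change of -0.09 over 4 tested genes. The kinase Ripk1 was at 0.29 (SE 0.21, edgeR adjusted p = 0.476), its partner kinase Ripk3 -0.12 (SE 0.40, 0.891), the membrane-permeabilising Mlkl -0.30 (SE 0.29, 0.584) and the nucleic acid sensor Zbp1 -0.05 (SE 0.43, 0.957). Markers of T and NK cells summed to 3.73 to 11.2 CPM in WT and 2.17 to 6.37 CPM in the null tumors. Those of B and plasma cells, 10.9 to 45.4 and 1.06 to 10.9 CPM, differed in mean level by -2.18 log2 units, null minus WT (exact permutation p = 0.0317, adjusted p = 0.262 over 11 lists). Xcr1, a marker of cross-presenting dendritic cells, had at most 0.287 CPM in any tumor, and Clec9a, another, at most 0.391 CPM.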
